A study of Drosophila melanogaster with 12 samples.

Results

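Separate populations of Canton-S fruit flies (Drosophila melanogaster), a common wild-type stock, had been selected for male fighting, and head transcripts of the aggressive I and aggressive II populations were compared here. The comparison holds 6 of the 12 arrays of the series, 3 for each of these populations, and uses every probe set that is not a control. It asks how far 2 populations under the same selection came to differ. All flies were males aged 5 days at generation 21, frozen in groups, and whole-head RNA was hybridised to 1 Affymetrix array per sample. In aggressive I and aggressive II the fathers of each generation were chosen for aggression. In neutral I and neutral II, with 3 arrays each, males were taken at random once the aggressive ones had been removed, by the sample labels, whereas the series text describes them as selected for less aggression, without a significant effect. All populations share the Canton-S background, and each is a single population, so a difference between them holds for these populations and not for the selection as such. Nothing in the labels ties the 3 arrays of a population to separate cultures, and the p-values rest on the spread between these arrays, which may be technical. Fewer cells of a type and less RNA per cell cannot be told apart in whole heads.

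Replicate populations under the same selection can respond through different genes, because many alleles can serve the same trait and because chance changes allele frequencies in any small closed population. In the fly head, odorant-binding proteins are secreted into the fluid around sensory neurons and also made by fat tissue, and they carry small hydrophobic molecules. Antimicrobial peptides and the related bomanins are secreted by fat tissue and blood cells, largely under the Toll and Imd pathways. Cytochrome P450 enzymes, glutathione S-transferases and UDP-glycosyltransferases process foreign and internal small molecules.

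The deposited values were MAS5 signals, a linear measure of brightness per probe set, and the arrays had median signals between 962.5 and 1050.3. Tests ran on the log2 scale over the 8379 probe sets that passed a filter on low signal, and log2 differences below are on that scale. Of head markers, all 21 measured photoreceptor genes and all 7 glial markers passed the filter, as did 5 of 7 neuron markers. The filter kept 8379 of 13966 probe sets, and 17 of 36 odorant-binding and 12 of 124 chemoreceptor genes passed it. Arrays of aggressive I correlated with arrays of aggressive II with a median r of 0.9553, against 0.9581 within aggressive I and 0.9607 within aggressive II. Aggressive I array 2 and neutral I array 3 had the lowest mean correlation with all other arrays, 0.9506 and 0.9491. A further measure moved with the comparison. The 18S ribosomal RNA control probe sets had mean log2 signals of 12.69, 14.34 and 12.75 in aggressive I, against 11.79, 11.8 and 11.93 in aggressive II. The groups did not overlap, with a difference of 1.42 (exact permutation test, two-sided p = 0.1, the smallest that 3 against 3 arrays can give, and 0.3 after adjustment over 6 array measures). The neutral I arrays had 12.08, 12.16 and 11.92 and the neutral II arrays 11.56, 12.97 and 12.28. The 3′ to 5′ log2 ratio of eIF-4a averaged 1.89 in aggressive I and 1.67 in aggressive II (p = 0.1, exact permutation test), while the bacterial spike-in controls averaged 13.84 and 13.9 (p = 0.6, exact permutation test).

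**Figure D1:**
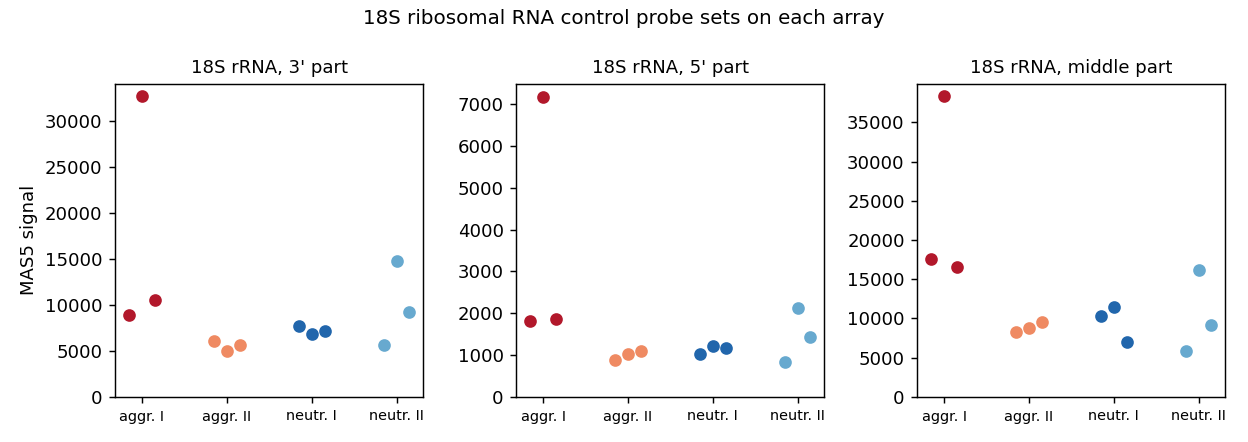
MAS5 signal of the 3 probe sets for parts of the 18S ribosomal RNA (one panel each, linear axis), with 1 point per array and the aggressive populations left of the neutral ones. In every panel the 3 aggressive I points lie above the 3 aggressive II points, and aggressive I array 2 is highest, for example 32732 in the 3′ panel.

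Of the 8379 probe sets tested, 50 differed between aggressive I and aggressive II, which is 0.597% (limma, Benjamini-Hochberg adjusted p below 0.05). They comprised 35 higher and 15 lower in aggressive I, 0.418% and 0.179% of those tested, and they named 41 genes (31 higher, 10 lower) and 8 probe sets without a gene name. The named genes with the largest differences were CG3984, CG16926, Obp99b and Pepck2, which were higher in aggressive I, and Obp83b, CG5397 and Sos, which were lower. The differences were mostly moderate: the median size was 0.84 on the log2 scale, the smallest 0.48, and 7 probe sets higher and 9 lower passed a 2-fold difference. In all 50 the 3 arrays of aggressive I lay apart from the 3 of aggressive II, as they did in 18.6% of all probe sets (11.3% with aggressive I above and 7.26% with it below). Trp1 and fit were just inside the threshold (adjusted p = 0.0493 for both, limma) and 147151_at, Obp56e and Mob2 just outside it (0.0509, 0.0515 and 0.0523, limma).

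The count depended on single arrays, and the split by direction on the scaling. The count was 32, 27 and 29 without aggressive I array 1, 2 or 3, then 29, 24 and 23 without aggressive II array 1, 2 or 3, and 31 without neutral II array 2. When 1 of the 12 arrays was omitted at a time, 16 probe sets passed in all 12 fits. They were CG3984, CG16926, Obp99b, Pepck2, BomS4, Mtk, CG42329, Obp83b, CG5397, Sos, CG9377 and 5 probe sets without a gene name, and 34 lost the call without at least 1 array. With 18S signal as a covariate, 13 probe sets passed in the aggressive pair, of which 11 were among the 50, and 17 in the neutral pair. Without centring the arrays, and after quantile normalization, the 50 calls of each split into 28 higher and 22 lower. The excess of higher calls lay among bright probe sets: in the brightest of 4 equal groups 20 were higher and 2 lower in aggressive I, against 3 and 7 in the dimmest.

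**Figure D2:**
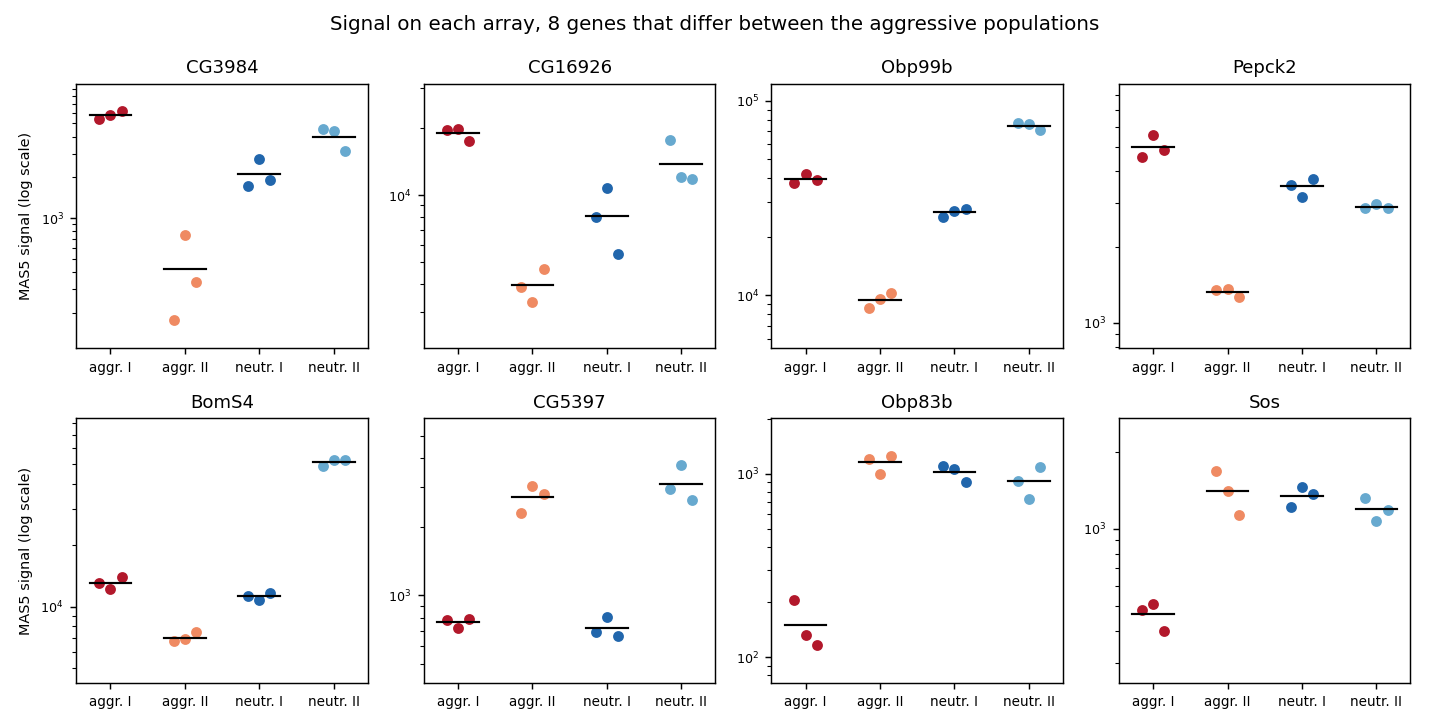
MAS5 signal on each array (log axis) of 8 genes, with the population mean as a bar. CG3984, CG16926, Obp99b, Pepck2 and BomS4 are higher and CG5397, Obp83b and Sos lower in aggressive I than in aggressive II, with no overlap of their arrays.

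The pair of neutral populations, which shares no array with the aggressive pair, also diverged. Between neutral I and neutral II 24 probe sets differed, 0.286% of those tested (10 or 0.119% higher and 14 or 0.167% lower in neutral I), and 14.8% did not overlap. That count was 15 without neutral I array 1 or neutral II array 1. The log2 differences of all probe sets had an SD of 0.316 in the aggressive pair and 0.276 in the neutral pair, and median sizes of 0.166 and 0.144. Against neutral I and neutral II the SD was 0.303 and 0.315 for aggressive I, and 0.279 and 0.29 for aggressive II. The comparisons with aggressive I thus had the widest SDs, across regimes as well as within. A direct test of size asked which differences were larger in the aggressive pair, whichever neutral population is taken from the other. It called 7 probe sets (0.0835%), and the reverse test called 7 (0.0835%) as larger in the neutral pair. The 7 larger in the aggressive pair were CG3984, Pepck2, Obp83b, Sos and the unnamed 143647_at, 152569_at and 141374_at. Leaving out 1 array gave 4 to 6 such calls, and 4 in every fit except those without aggressive II array 2 or array 3. The counts of calls were thus equal, at 7 and 7, in the fit used throughout. How the count for the neutral pair moves over the alternatives was not examined. With 18S signal as a covariate, 13 probe sets were called for the aggressive and 17 for the neutral pair, instead of 50 and 24. The mean 18S signal was 13.26 against 11.84 within the aggressive pair and 12.06 against 12.27 within the neutral pair. The 18S signal thus differed more within the aggressive pair, and a fit with both cannot fully tell it from the populations there. What lowered the counts was not tested. The turned order of these counts therefore cannot say which pair diverged more.

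**Figure D3:**
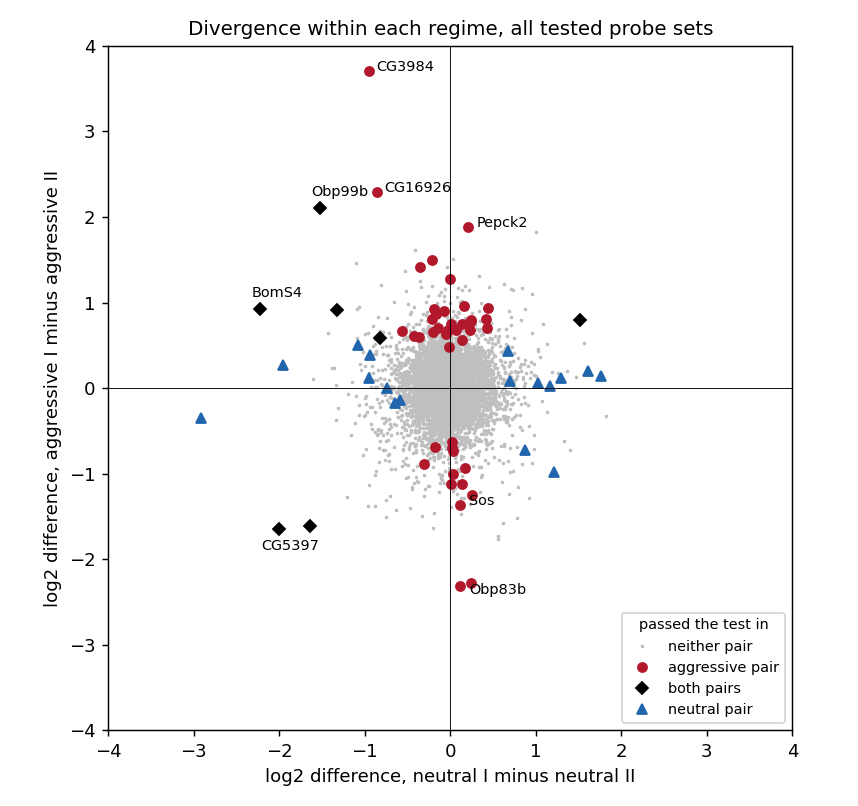
Log2 difference of aggressive I minus aggressive II (vertical) against neutral I minus neutral II (horizontal) for 8379 probe sets, with marks for those that passed in the aggressive pair, the neutral pair or both. CG3984, Pepck2, Obp83b and Sos lie far from 0 vertically and within 1 log2 unit of 0 horizontally, while Obp99b, BomS4 and CG5397 are far from 0 on both axes.

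Individual odorant-binding protein genes differed strongly, in both directions. Of 36 on the array 17 passed the filter, and of these Obp99b and Obp56a were higher and Obp83b lower in aggressive I. The remaining 14 did not pass the test. Over all 17 the median log2 difference was 0.13 with 12 above 0, against a median of 0.04 and 57.3% above 0 over all 6867 genes. Of the 17, 6 had an unadjusted limma p below 0.05, beside 12.5% of all genes. Of the 6867 genes, each at its brightest probe set, 31 were called higher and 7 lower.

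Obp83b, an odorant-binding protein of the antenna, had signals of 204.6, 132 and 116.1 in aggressive I, against 1209.8, 996.9 and 1252 in aggressive II. The neutral I arrays had 1106, 1063 and 899.1, and the neutral II arrays 913, 724.1 and 1089.7. All arrays outside aggressive I lay in the same range, and the 3 of aggressive I lay far below it. The log2 difference between aggressive I and aggressive II was -2.31 (SE 0.17, limma adjusted p = 6.17e-05), which is 4.95-fold higher in aggressive II on the log2(signal + 94.6) scale, the scale of every fold given here. The aggressive I signals lie close to the added 94.6, so this fold understates the ratio of the signals. Against the mean of the neutral populations aggressive I differed by -2.07 (adjusted p = 5.29e-05, limma) and aggressive II by 0.23 (adjusted p = 0.72). The unnamed probe set 143647_at had the same profile, with means of 125.8 ± 58.71 in aggressive I and 989.8 ± 74.7 in aggressive II, while the neutral means were 1003 ± 101.2 and 803.2 ± 28.13 (SD, n = 3 each). Whether the sequence under the probes differs between the populations was not tested.

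Obp99b, a secreted odorant-binding protein, separated all 4 populations. Its signals were 37643, 41907 and 39022 in aggressive I, against 8577, 9559 and 10244 in aggressive II. They were 25317, 27058 and 27805 in neutral I and 76454, 75979 and 70990.2 in neutral II. The lowest population was aggressive II and the highest neutral II, with aggressive I and neutral I between them, and no arrays of different populations overlapped. The log2 difference was 2.10 in the aggressive pair (SE 0.099, limma adjusted p = 3.05e-06) and -1.52 in the neutral pair (adjusted p = 2.99e-05).

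Obp56a differed in degree between the aggressive populations, both of which lay below the neutral ones. Its signals were 5346, 5501 and 3814 in aggressive I, 2539, 2639.6 and 2364 in aggressive II, and between 10429 and 13656 on the 6 neutral arrays. The aggressive populations did not overlap each other, and neither reached the neutral range. Aggressive I exceeded aggressive II by 0.96 (SE 0.14, limma adjusted p = 0.0144), a call that was kept in 9 of 12 fits with 1 array left out and lost without aggressive I array 1 or 2 or aggressive II array 3. Obp56e, of the same cluster of genes, had means of 7954 ± 1118 in aggressive I and 4635 ± 1000.2 in aggressive II (SD, n = 3 each) and a log2 difference of 0.83 that did not pass (limma adjusted p = 0.0515). Obp56d was at 0.31 (adjusted p = 0.237) and Obp57c at 0.33 (adjusted p = 0.33, limma).

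Genes for antimicrobial peptides and bomanins, short secreted peptides that act against microbes, leaned one way. Of 16 on the array 12 passed the filter, and all 12 had a log2 difference above 0, with a median of 0.41. BomS4, Mtk, Drsl5 and BomBc3 passed the test as higher in aggressive I and 0 were lower, and 11 of the 12 had an unadjusted limma p below 0.05, as did 12.5% of all 6867 genes. The median lay between 0.348 and 0.45 over the alternatives tried, 0.348 after quantile normalization. Between the neutral populations the median of these genes was -0.08, with BomS4 and Mtk called. The summed signal of the 12 genes was 566046 to 576583 on the aggressive I arrays and 418202 to 465958 on the aggressive II arrays. It was 423404 to 481904 on the neutral I arrays and 481489 to 487587 on the neutral II arrays, so the aggressive I arrays lay above all others. The 18S signal was also highest in aggressive I (12.69 to 14.34), and a fit with it as a covariate is among the alternatives of that range.

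Mtk, the peptide metchnikowin, had signals of 9932, 11246 and 10764 in aggressive I, against 6261, 5977 and 5193 in aggressive II. Neutral I was lowest with 2584, 2945 and 2741, and neutral II had 7172, 7217 and 6101. Aggressive I was above every other array, and aggressive II overlapped neutral II. The log2 difference was 0.91 in the aggressive pair (SE 0.12, limma adjusted p = 0.00746) and -1.33 in the neutral pair (adjusted p = 0.000475). With 18S signal as a covariate Mtk was at 0.85 and no longer called (adjusted p = 0.292, limma).

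BomS4, a bomanin, had signals of 12988, 12242 and 14021 in aggressive I, against 6754, 6910.4 and 7478 in aggressive II. The neutral I arrays had 11235, 10834 and 11712, and the neutral II arrays 48936, 52531 and 52464. Neutral II stood far above the other populations, and aggressive II was the lowest. Aggressive I exceeded aggressive II by 0.93 (SE 0.097, limma adjusted p = 0.000997), and the call held with 18S signal as a covariate. The gap within the neutral pair was larger by the test of size, at -2.23 (adjusted p = 1.29e-06).

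BomBc3 and Drsl5, a relative of drosomycin, rested on thinner evidence. BomBc3 averaged 24682 ± 2770.1 in aggressive I and 13752 ± 2925 in aggressive II (SD, n = 3 each; log2 difference 0.90, limma adjusted p = 0.0401). Its call was lost whichever of the 12 arrays was left out. Drsl5 averaged 88535 ± 4901 in aggressive I and 61724 ± 499 in aggressive II (log2 difference 0.57, limma adjusted p = 0.02), and its call was lost after quantile normalization and whichever of the 6 aggressive arrays was left out. Among members that did not pass, drosomycin itself, Drs, was at 0.50 (limma adjusted p = 0.144), BomT3 at 0.39 (0.141) and BomBc2 at 0.42 (0.2). The list of recognition and signalling genes upstream of these peptides had 0 of 24 called by limma (5 with an unadjusted p below 0.05) and a median of 0.06.

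**Figure D4:**
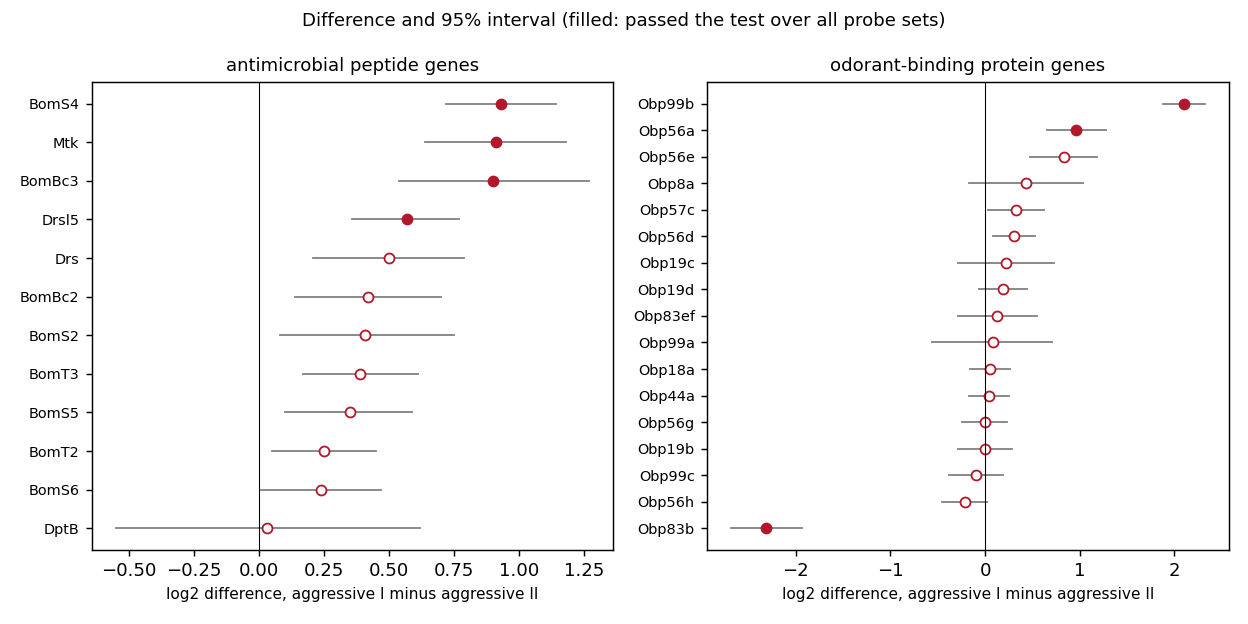
Log2 difference of aggressive I minus aggressive II with its 95% interval from limma for the 12 antimicrobial peptide and bomanin genes (left) and the 17 odorant-binding protein genes (right) that passed the filter, filled where the test over all probe sets was passed. All 12 peptide genes are above 0, from 0.03 for DptB to 0.93 for BomS4, while odorant-binding genes run from -2.31 for Obp83b to 2.10 for Obp99b.

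Pepck2 encodes a phosphoenolpyruvate carboxykinase, an enzyme of gluconeogenesis and glycerol formation. Its signals were 4535, 5570.3 and 4845 in aggressive I, against 1349.6, 1359.5 and 1266 in aggressive II. They were 3527, 3165 and 3739 in neutral I and 2845, 2950.2 and 2857 in neutral II. The neutral arrays lay between the aggressive populations, with no overlap on either side. Between the aggressive populations the log2 difference was 1.88 (SE 0.10, limma adjusted p = 7.55e-06), or 3.69-fold. Aggressive I lay above the neutral mean (0.68, limma adjusted p = 0.00541) and aggressive II below it (-1.21, adjusted p = 5.85e-05, limma). Pepck2 and CG5397 were the named genes that passed on opposite sides of the neutral mean, and the unnamed 141374_at and 152766_at did so too. In CG5397 the aggressive means, 763.6 and 2699, lay within the neutral means of 720 and 3095. In 152766_at they were 3085 and 9966, beside neutral means of 3024 and 9326.

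Galt, which converts galactose-1-phosphate in sugar metabolism, averaged 15190.1 ± 482.1 in aggressive I and 9040.2 ± 1044 in aggressive II (SD, n = 3 each). Both neutral means, 11627 in neutral I and 9506 in neutral II, lay between them, and the log2 difference was 0.80 (limma adjusted p = 0.0181). The Galt call was lost without aggressive I array 1, 2 or 3 or aggressive II array 2 or 3. Lsp2, a storage protein of fat tissue, had signals of 89284, 91081 and 86603 in aggressive I, against 65231, 62269.9 and 56479.5 in aggressive II. Neutral I had 48785, 53771 and 58329.7 and neutral II 86511, 95279.8 and 92163, so aggressive I overlapped neutral II, and aggressive II overlapped neutral I. Its log2 difference was 0.59 in the aggressive pair (limma adjusted p = 0.0418) and -0.82 in the neutral pair (adjusted p = 0.0068). The Lsp2 call in the aggressive pair was kept in 1 of 12 fits with 1 array left out, the one without neutral I array 3. The other fat body and yolk genes measured did not pass, with Fbp1 at -0.48 (limma adjusted p = 0.741), Yp3 at 0.10 (0.744) and apolpp at -0.01 (0.979).

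The detoxification genes that were called were all higher in aggressive I. Over all 6867 genes, each at its brightest probe set, 31 were called higher and 7 lower. Of 56 cytochrome P450 genes that passed the filter, out of 80, Cyp4p1 and Cyp4ac1 were higher in aggressive I and 0 lower, with 38 above 0, a median of 0.12 and 17 at an unadjusted limma p below 0.05. Cyp4p1 averaged 10573 ± 747.4 in aggressive I and 6852 ± 388.5 in aggressive II, and 11408 ± 921 and 16323 ± 1015 in the neutral populations (SD, n = 3 each), so that aggressive II was the low population. Its log2 difference was 0.67 and that of Cyp4ac1 0.63 (limma adjusted p = 0.0313 for both). Each of these calls was lost without aggressive I array 1, 2 or 3 and aggressive II array 1 or 2, and kept in 3 of 12 such fits. Cyp28d1 was at 0.65 (limma adjusted p = 0.134) and Cyp6d5 at 0.29 (0.205). Of 29 glutathione S-transferase genes GstO3 was higher and 0 lower, with 19 above 0, a median of 0.14 and 9 at an unadjusted p below 0.05, and GstE1 was at -0.59 (limma adjusted p = 0.0688). Of 23 esterase and UDP-glycosyltransferase genes 0 were called by limma, 10 had an unadjusted p below 0.05, 17 were above 0 and the median was 0.21. Over all genes 12.5% had an unadjusted p below 0.05 and 57.3% were above 0. Ugt49B1 led the esterase and UDP-glycosyltransferase genes at 0.74 (limma adjusted p = 0.142).

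Cyp6a20, a P450 gene linked to male aggression in flies, was examined whatever its result. Its signals were 8758, 6650.3 and 7771 in aggressive I, against 3882, 4685 and 5249 in aggressive II. The neutral I arrays had 11880.1, 12293 and 11294, and the neutral II arrays 9065, 11842 and 12380. The order was aggressive II, aggressive I and then the neutral populations, with no overlap between these 3 sets of arrays. The difference between the aggressive populations was 0.78 (SE 0.16, 95% interval 0.43 to 1.13) and did not pass (limma adjusted p = 0.061), though it passed in 2 of 23 alternatives. Against the neutral mean aggressive II differed by -1.31 (limma adjusted p = 0.00103) and aggressive I by -0.52 (adjusted p = 0.122).

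GstO3 and se are neighbouring genes on chromosome arm 3L and both belong to the omega class of glutathione S-transferases, and se (sepia) is needed for the red drosopterin pigments of the eye. GstO3 averaged 5753 ± 598.4 in aggressive I and 3073 ± 564.9 in aggressive II, with neutral I at 4482 ± 225.1 and neutral II at 3175 ± 329.4 (SD, n = 3 each). For se the means were 3598 ± 330.8 in aggressive I and 2254 ± 274.7 in aggressive II, with neutral I at 3063 ± 12.65 and neutral II at 2181 ± 163.9. In both genes aggressive I was highest, and aggressive II overlapped neutral II. The log2 differences were 0.94 for GstO3 and 0.70 for se (limma adjusted p = 0.0198 and 0.0281). The next omega-class genes, GstO2 and GstO1, were at 0.32 and 0.17 and did not pass (limma adjusted p = 0.283 and 0.737). Of the 10 eye pigment genes se was the sole call, and the median was -0.03. GstO3 was kept in 8 and se in 4 of 12 fits with 1 array left out, and both were lost without aggressive I array 1 or 3 or aggressive II array 2 or 3.

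Among signalling genes Sos stood out. Sos is the guanine nucleotide exchange factor that activates Ras downstream of receptor tyrosine kinases. Its signals were 483, 509.3 and 400.9 in aggressive I, against 1684, 1404 and 1135 in aggressive II. The 6 neutral arrays lay between 1076 and 1453. Aggressive I was below every other array, and aggressive II overlapped the neutral range. The log2 difference was -1.37 (SE 0.15, limma adjusted p = 0.00144), with -1.25 for aggressive I against the neutral mean (adjusted p = 0.00104) and 0.12 for aggressive II (adjusted p = 0.875). With 18S signal as a covariate Sos was at -1.34 and not called (adjusted p = 0.0815, limma).

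Nmdar1, a subunit of the NMDA-type glutamate receptor, was the single call among 12 glutamate and GABA genes. Its signals were 970.9, 867.6 and 846.6 in aggressive I, against 491.9, 547.2 and 501.3 in aggressive II. Aggressive I was above the neutral II arrays (568.5 to 614.9) and above the neutral I arrays (571.8 to 790.6), and aggressive II below both. Its log2 difference was 0.75 (limma adjusted p = 0.0181), and the call was lost whichever of the 6 aggressive arrays was left out. VGAT, the vesicular GABA transporter, was at 0.51 (limma adjusted p = 0.165) and VGlut at -0.64 (0.237). Of 15 channel genes 0 were called by limma in the aggressive pair (1 with an unadjusted p below 0.05). The nearest was slo, a calcium-activated potassium channel, with means of 2083 ± 359.8 in aggressive I and 4323 ± 521.9 in aggressive II, and 3649 ± 726 and 1472 ± 291.3 in the neutral populations (SD, n = 3 each; log2 difference -0.98, limma adjusted p = 0.064). In the neutral pair slo passed (1.21, adjusted p = 0.0385).

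Several further genes were lower in aggressive I on some of their probe sets. Glut4EF, named after a mammalian enhancer factor of the glucose transporter GLUT4, is covered by 4 probe sets. Of these 151024_at (-1.0, limma adjusted p = 0.0174) and 149601_at (-0.69, 0.0174) were lower in aggressive I, and the others, at -0.46 and -0.79, did not pass (0.4 and 0.31). On 151024_at the signals were 920.2, 956.7 and 692.6 in aggressive I and 1781, 1920.1 and 1879.9 in aggressive II, with no overlap. Svil, the actin-binding protein supervillin, passed on 148047_at (-0.70, limma adjusted p = 0.0448), while its other probe sets were at -1.40, -1.16 and 0.09 (adjusted p = 0.304, 0.0803 and 0.81). Tgi, an inhibitor of growth in the Hippo pathway, averaged 742.3 ± 36.03 in aggressive I and 1242 ± 90.35 in aggressive II (log2 difference -0.63, limma adjusted p = 0.0412). The probe sets of olf413 disagreed: 149225_at was lower in aggressive I (-0.74, limma adjusted p = 0.0313) and the other probe sets were at 0.12 and -0.01 (0.959 and 0.988). Svil, Tgi and olf413 each kept the call in 1 to 3 of 12 fits with 1 array left out.

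Cpr100A, a structural protein of the cuticle, was the single call of 43 cuticle genes. It had signals of 797.5, 498.7 and 554.3 in aggressive I, against 1459, 1098 and 1998 in aggressive II, and neutral arrays lay between 1307 and 1676. Aggressive I was thus the low population, and aggressive II overlapped the neutral arrays. The populations differed by -1.12 (SE 0.20, limma adjusted p = 0.0371), and it was kept in 2 of 12 fits with 1 array left out. The list's median was -0.05.

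The widest gap of all was in CG3984, a gene known by its annotation number, on chromosome arm 3R. Its signals were 5363, 5748 and 6155 in aggressive I, against 175.3, 750.4 and 335.7 in aggressive II. The neutral I arrays had 1717, 2719.8 and 1904, and the neutral II arrays 4522, 4363 and 3105. Aggressive II was the lowest population and aggressive I the highest, with the neutral ones between and no overlap. The log2 difference was 3.71 (SE 0.34, 95% interval 2.95 to 4.47, limma adjusted p = 0.000507), or 13.1-fold. Against the neutral mean aggressive II differed by -2.69 (adjusted p = 0.00125) and aggressive I by 1.02, which did not pass (adjusted p = 0.155, limma). CG6912 is the adjacent gene and was higher too, with 1588 ± 293 in aggressive I and 618.7 ± 33.37 in aggressive II (SD, n = 3 each; log2 difference 1.27, limma adjusted p = 0.0121). The call of CG6912 was lost without aggressive II array 2 or 3.

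CG16926, also known by its number, had signals of 19596, 19700.5 and 17406 in aggressive I, against 3884, 3313 and 4653 in aggressive II. The neutral I arrays were scattered at 7972, 10752 and 5443, and the neutral II arrays at 17670.2, 12031 and 11844. Aggressive II was below all other arrays, and aggressive I overlapped neutral II at its highest array. At 2.29 (SE 0.24, limma adjusted p = 0.001) the log2 difference corresponds to 4.89-fold. CG8661 had a wide spread in aggressive I, with 564.5, 1451 and 612.9, against 242.9, 222.7 and 292.6 in aggressive II (log2 difference 1.42, SE 0.27, limma adjusted p = 0.0448). It was kept in 2 of 12 fits with 1 array left out, those without aggressive I array 1 or 2.

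Of the lower genes known by number, CG9377 had signals of 5313, 5271 and 5389 in aggressive I, against 10629, 10603 and 9639 in aggressive II. The neutral arrays lay between these sets, from 6452 to 8454. They differed by -0.89 (SE 0.093, limma adjusted p = 0.000997). CG13239 averaged 622.1 ± 205.1 in aggressive I and 1637 ± 331.7 in aggressive II (log2 difference -1.25, limma adjusted p = 0.0281), and its call was kept in 5 of 12 fits with 1 array left out. Higher genes by number included CG10208 (0.87, limma adjusted p = 0.0281) and CG13794 (0.81, 0.00962). CG10208 was kept in 3 of 12 such fits and CG13794 in 11, lost without aggressive II array 2.

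The other 10 genes higher in aggressive I differed by 0.48 to 0.78 on the log2 scale. With known roles are kappaB-Ras (0.70), a small Ras-like GTPase that restrains NF-kappaB signalling in mammals, Trp1 (0.65), a protein of translocation into the endoplasmic reticulum, and Uvrag (0.60), which acts in autophagy and endosome traffic. The gene fit (0.67) is expressed in fat tissue, and CG31937 (0.78), CG8157 (0.75), CG11458 (0.75), CG13833 (0.68), CG10560 (0.68) and CG1074 (0.48) complete the set. Their limma adjusted p ranged from 0.0141 for CG8157 to 0.0493 for Trp1, Uvrag and fit. With 1 array left out, Uvrag, fit and CG1074 were kept in 0 of 12 fits, CG10560 in 1 and Trp1 in 2. CG13833 was kept in 4, kappaB-Ras in 7, and CG31937, CG8157 and CG11458 in 8. CG11458 lay below the neutral mean in both populations, by -0.91 in aggressive I and -1.65 in aggressive II. Of the 8 unnamed probe sets, 141374_at was the most regular, with 2895, 2951 and 2927 in aggressive I, 1043, 1036 and 957.3 in aggressive II and 1436 to 1919.9 on the neutral arrays (log2 difference 1.5, limma adjusted p = 4.02e-05).

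Each aggressive population was also set against the mean of the neutral populations, to say on which side of it each lay. No earlier generation was measured, so which population had moved was not tested. These comparisons share the neutral arrays. Aggressive I differed from that mean at 72 probe sets (0.859%), 38 higher (0.454%) and 34 lower (0.406%). Aggressive II differed at 53 (0.633%), 22 higher (0.263%) and 31 lower (0.37%). The first count was 42, 36 and 43 without aggressive I array 1, 2 or 3 and 43 without aggressive II array 2. It was 43 without neutral I array 1 and 40, 44 and 42 without neutral II array 1, 2 or 3. The second count was 30 without aggressive II array 1. Of the 50 probe sets that separated the aggressive populations, 17 passed for aggressive I alone, among them Obp83b, Sos, Mtk, BomBc3, Galt and Cpr100A. A further 11 passed for aggressive II alone, among them Obp99b, CG3984, CG16926, Trp1 and Cyp4p1. The calls for aggressive I alone were 8 higher and 9 lower than aggressive II, and those for aggressive II alone 10 and 1. On opposite sides of the neutral mean were 4, and on the same side 3, namely Obp56a, CG11458 and BomS4. In BomS4 the neutral means were 11260.4 in neutral I and 51310.2 in neutral II. Aggressive I, at 13084, thus lay above neutral I and below neutral II. For 15, such as GstO3, se, Nmdar1 and CG6912, neither population passed. Passing for 1 population and not for the other is not a test between their distances from the neutral mean. In 30 of the 50 probe sets (60%) both neutral means lay between the aggressive means, against 19.3% of all probe sets. A wide gap between the aggressive means makes this more likely, so the share describes the called probe sets and is no result about them.

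**Figure D5:**
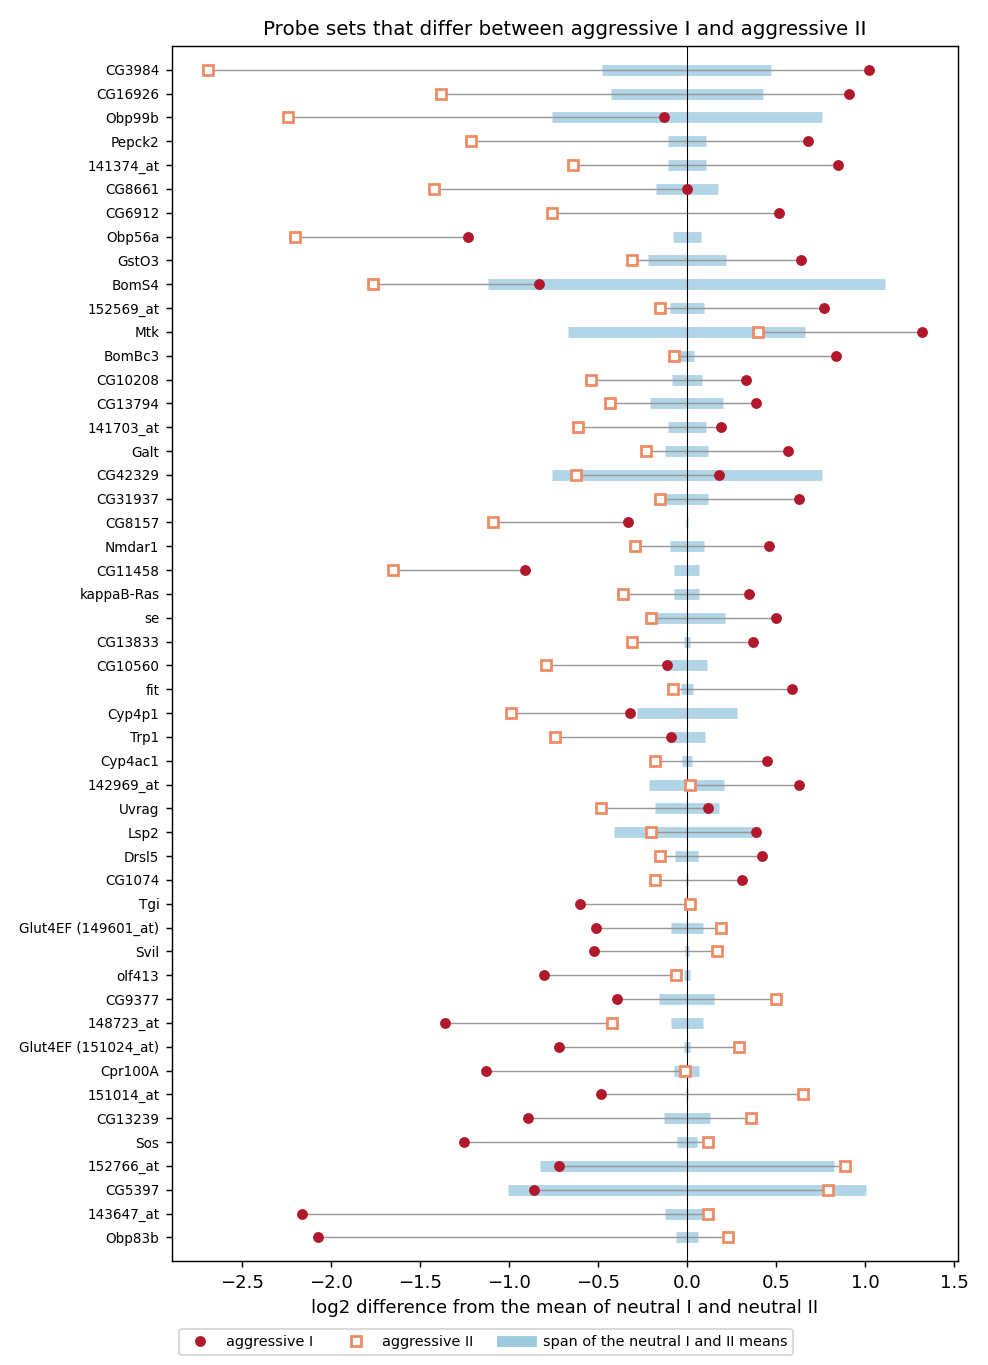
Log2 difference of aggressive I (filled circles) and aggressive II (open squares) from the mean of neutral I and neutral II for the 50 probe sets that passed between the aggressive populations, sorted by their difference, with the span of both neutral means as a blue bar. Pepck2 has aggressive I at 0.68 and aggressive II at -1.21, while Obp56a has both on the left at -1.23 and -2.20, and BomS4 and CG5397 have neutral spans wider than 2 log2 units.

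Of the 50 probe sets 7 also passed between neutral I and neutral II, which is 14% of the calls of the aggressive pair and 29.2% of those of the neutral pair. They were Obp99b, BomS4, Mtk, Lsp2, CG5397, CG42329 and the unnamed 152766_at. For CG5397 the signals were 780.3, 723.3 and 787.2 in aggressive I, against 2293, 3023 and 2781 in aggressive II. They were 692.9, 805.3 and 661.9 in neutral I, against 2920.3, 3740.4 and 2625 in neutral II. The arrays thus formed a low level shared by aggressive I and neutral I and a high level shared by aggressive II and neutral II. The log2 differences were -1.65 in the aggressive pair (SE 0.16, limma adjusted p = 0.000507) and -2.01 in the neutral pair (adjusted p = 0.000108). The probe set 152766_at had the same arrangement, with 3085 ± 238.1 in aggressive I and 9966 ± 914.5 in aggressive II, with neutral I at 3024 ± 479.6 and neutral II at 9326 ± 1278 (SD, n = 3 each). The labels do not say whether the numbers I and II link populations across regimes.

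CG42329 lies next to CG5397 on chromosome arm 2L and ran the other way. Its signals were 5422, 5056 and 5521 in aggressive I, against 3228, 3072 and 3122 in aggressive II. They were 8508, 8523 and 8201 in neutral I, against 2824, 2699.6 and 2803 in neutral II. Both II populations were low, and neutral I was above aggressive I. The log2 difference was 0.79 in the aggressive pair (SE 0.091, limma adjusted p = 0.00186) and 1.52 in the neutral pair (adjusted p = 1.82e-05). A second, dimmer probe set of CG42329 was at 0.36 and 0.79 in the same comparisons and passed in neither (limma adjusted p = 0.692 and 0.542).

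In the order of genes of the RefSeq annotation, 3 of 3852 adjacent pairs with both genes tested had both genes called, and 38 had 1 gene called. They were CG42329 with CG5397, GstO3 with se, and CG6912 with CG3984, and in the last 2 of these pairs both genes were higher in aggressive I. The files name no probe sequences, so shared hybridisation between neighbours was not tested. By chromosome, called genes made up 0.814% of those tested on 2L, 0.579% on 2R, 0.682% on 3L, 0.764% on 3R and 0 of 48 on chromosome 4. On the X 1 of 1167 was called (CG8661, 0.0857%), against 40 of 5680 on the autosomes (0.704%).

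Of 37 gene lists 29 held no called gene. Lists of genes for the mitochondrion, the ribosome and the proteasome had medians above 0 without any call. Of 56 oxidative phosphorylation genes 49 were above 0 with a median of 0.16, led by ND-MWFE at 0.33 (limma adjusted p = 0.172). The median was 0.12 for 28 cytosolic ribosomal protein genes (26 above 0), 0.11 for 63 mitochondrial ribosomal protein genes (47 above 0) and 0.17 for 26 proteasome genes (23 above 0). Unadjusted limma p-values were below 0.05 for 11, 2, 8 and 6 genes of these lists, beside 12.5% of all genes, and the shares of the ribosomal lists were near or below that. After quantile normalization the median was 0.078 for oxidative phosphorylation and 0.088 for the proteasome. Over all probe sets in the brightest of the 4 brightness groups the median was 0.07 before quantile normalization and 0 after it.

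Lists of genes of neurons and photoreceptors had medians at or slightly below 0. Of 21 photoreceptor genes 8 were above 0, with a median of -0.06 and trpl, a light-gated channel, at -0.32 (limma adjusted p = 0.165). The 5 neuron markers were all below 0 with a median of -0.13, led by para at -0.60 (adjusted p = 0.484, limma). Of 17 biogenic amine genes 8 were above 0 with a median of -0.04 (-0.179 to 0.041 over the alternatives), and the octopamine receptor gene Octbeta3R was at -1.22 (SE 0.39, limma adjusted p = 0.213). Among 20 neuropeptide genes Ilp2, an insulin-like peptide of brain cells, was at 0.46 (limma adjusted p = 0.089). None of the genes in these 4 lists was called by limma, with 3, 0, 6 and 3 at an unadjusted p below 0.05. Over all genes that share was 12.5%, and the 6 of 17 biogenic amine genes lay above it.

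Markers of fat tissue, muscle and blood cells, found within or attached to the head, gave 0 calls apart from Lsp2. Markers of gut, testis and ovary, which a head sample should lack, gave 0 calls. Muscle genes (15 of 20 passed the filter) had a median of -0.10 and summed signals of 164673 to 173207 in aggressive I and 181560.2 to 191219 in aggressive II, with the muscle actin Act79B at -0.46 (limma adjusted p = 0.0789). Digestive genes (14 of 29) had a median of -0.14 and sums of 35501 to 37982 in aggressive I and 40373 to 43916 in aggressive II. Testis and accessory gland genes (8 of 24) had a median of -0.02 and sums of 12162 to 12502 in aggressive I and 13396 to 14796 in aggressive II, although Acp1 and Acp65Aa in that list are cuticle genes. Ovary and chorion genes (7 of 15) had a median of -0.20 and sums of 9571 to 11841 in aggressive I and 12837 to 13084 in aggressive II. Blood cell genes (10 of 10) had a median of 0.08 and sums of 40231 to 44352 in aggressive I and 41972 to 43573 in aggressive II. In the first 4 of these lists the sums of aggressive I lay below those of aggressive II without overlap. Such gaps were not particular to these tissues. Circadian clock genes had sums of 59564 to 60646 in aggressive I and 62742 to 63665 in aggressive II. For biogenic amine genes they were 82079 to 83798 and 90042 to 94785. Cytochrome P450 genes lay the other way, at 522149 to 537167 and 468304 to 490401. The part of these tissues in the differences of single genes was not tested.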

How the data were processed

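Head RNA of 12 samples was measured on single-colour Affymetrix arrays. MAS5 made the deposited intensities, per the submitters' processing notes, on a linear scale for 14010 probe sets. By their values the arrays were scaled to a trimmed mean of 2500 (2% set aside at either end), so total RNA is not compared. Detection calls and probe values were not used here, and no counts exist, so the number of arrays limits the precision (median SE of a log2 difference 0.17).

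Groups came from the sample titles. Controls (44 probe sets) did not enter. Among the remaining 13966, 12442 had 1 gene in the array's annotation, 327 several and 1197 none, and names from 1 gene only were used. Of these 12393 matched RefSeq (assembly Release 6 plus ISO1 MT), which gave chromosome arms and neighbours. The line label of 2 neutral I arrays lacks a word that the other arrays carry, and they were kept in their titled group.

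Intensities were transformed as log2(intensity + 94.6), the 10th percentile, and centred on each array's median, and a filter kept 8379 probe sets whose mean exceeded the 40th percentile. A fold change on this scale understates changes of dim probe sets. limma 3.58.1 in R 4.3.3 (lmFit, eBayes, prior degrees of freedom 2.854) fitted fixed population means over all 12 arrays, with Benjamini-Hochberg adjustment over all kept probe sets at 0.05. A gap was called larger in one pair when the difference and the sum of both pairs' differences passed with its sign. Lists used the brightest probe set per gene. Array measures used exact permutation tests (scipy 1.17.1). The fits were tested on simulated data. Alternatives were other pseudocounts, filters, scaling and variance models, the replicate number as a block, 18S signal as a covariate, only the arrays compared, and each array left out. Brightness groups and the joint omission of aggressive I array 2 and neutral I array 3 were added after seeing the data.

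Genes were named by rule: up to 15 per direction with the largest differences, called list members with up to 3 further members by smallest p, calls shared with the neutral pair or on opposite sides of the neutral mean, adjacent called genes, and Cyp6a20. Other genes were named after their values were seen. The comparison, lists and rule were chosen with earlier results of these data known. Replicate numbers were checked as pairs: deviations of arrays with the same number in aggressive I and aggressive II correlated at 0.039, 0.012 and 0.038. Those with different numbers lay between -0.054 and 0.014. Over all pairs of populations the values ran from -0.081 to 0.099 for equal numbers and from -0.123 to 0.085 for different numbers. Low correlations cannot exclude a shared batch, and whether arrays of one number were handled together was not tested.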

Additional observations from a re-analysis of the deposited data

Results flagged for a closer look

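For 17 of the 50 probe sets the difference between the aggressive populations differed from the difference between the neutral populations by the interaction term (limma, adjusted over 8379 probe sets). Over all 8379 probe sets the term passed in 36 (0.43%). The 50 were chosen by the aggressive difference, which is part of the term, so the 17 are no result about them. The values below are aggressive I minus aggressive II, less neutral I minus neutral II, on the log2 scale. The labels do not say that the numbers I and II pair populations across regimes, and with the neutral numbers exchanged the term would be the sum of both differences.

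The term was above 0 in 13: CG3984 (4.66), Obp99b (3.63), BomS4 (3.16), CG16926 (3.14), Mtk (2.24), 141374_at (1.70), Pepck2 (1.67), Lsp2 (1.40), Cyp4p1 (1.23), 152569_at (1.11), 142969_at (1.03), 141703_at (1.02) and Uvrag (0.96). In Obp99b, BomS4, Mtk and Lsp2 the neutral pair differed the opposite way and passed by itself. In CG3984, Pepck2, 141374_at and 152569_at the gap was larger in the aggressive pair whichever way the neutral pair is taken. The term was below 0 in 4: 143647_at (-2.52), Obp83b (-2.43), Sos (-1.48) and CG42329 (-0.73). In CG42329 both pairs differed in the same direction, and the gap of the neutral pair was the larger.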

How the results depend on the processing

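Over 23 alternatives no called difference changed sign, and 10 probe sets passed wherever tested: CG3984, CG16926, Obp99b, Pepck2, BomS4, Obp83b, CG5397, 143647_at, 152766_at and 141374_at. List medians near 0 did change sign, 14 of 36, such as eye pigment (-0.081 to 0.213) and cuticle (-0.093 to 0.024). The count of calls moved too. For aggressive I minus aggressive II, the neutral pair, aggressive I and aggressive II against the neutral mean, trended and robust variance gave 125, 59, 209 and 94 calls, and a filter at the 60th percentile 87, 46, 125 and 83. No filter gave 27 for the aggressive pair and 37 for aggressive I against the neutral mean, and 18S signal as a covariate 13 and 16. The replicate block gave 29 and 45, and omitting both aggressive I array 2 and neutral I array 3 gave 22 and 29. Only the arrays of the 2 populations compared gave 21 for the aggressive and 12 for the neutral pair, and the other comparisons cannot be had from those arrays. The gap was larger in the aggressive pair at 14 probe sets with trended variance and at 4 with those arrays omitted. Leaving out 1 array gave 23 to 49 calls for the aggressive pair, 15 to 24 for the neutral pair, 4 to 6 larger gaps, 36 to 69 for aggressive I and 30 to 56 for aggressive II. Fewer probe sets tested or fewer arrays are part of the filter and omission settings, and beyond that the cause was not tested. The replicate block kept 29 of the 50 calls and gave no further call, and whether replicate numbers mark arrays handled together was not tested. 18S signal differs between the aggressive populations, so a fit with both cannot fully tell them apart. Obp83b, dim in aggressive I, ranged from -2.91 to -1.71 over the alternatives.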

Other observations

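In the neutral pair, genes outside the calls of the aggressive pair included CG3397, which averaged 9586 ± 392 in aggressive I and 8999 ± 458.3 in aggressive II, with neutral I at 4792 ± 255.8 and neutral II at 1311 ± 244.4 (SD, n = 3 each). The aggressive populations differed at it by 0.14 (limma adjusted p = 0.685), while neutral I exceeded neutral II by 1.76 (adjusted p = 4.22e-05). CG34227 averaged 73197 ± 2459.9 in aggressive I and 70132 ± 10737 in aggressive II, with neutral I at 62167 ± 7808 and neutral II at 24389 ± 1662. CG11594 averaged 13347 ± 443.5 in aggressive I and 13289 ± 405.3 in aggressive II, with neutral I at 14293 ± 999.5 and neutral II at 6719.7 ± 209.3. In CG34227 and CG11594 neutral II alone stood apart, while in CG3397 both neutral populations lay below the aggressive ones. In all 3 genes the gap was larger in the neutral pair by the test of size.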
